A study of Mus musculus with 16 samples.

Results

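The genes of the leukotriene and lipoxygenase pathway were read in bone marrow-derived dendritic cells (BMDCs) in which the cytosolic receptor STING was stimulated with c-di-GMP, a bacterial cyclic dinucleotide. The genes were chosen by name: *Alox5*, *Alox5ap*, *Lta4h*, *Ltc4s*, *Alox15*, *Ltb4r1* and *Cysltr1*. All 7 were found among the 23356 genes of the deposited table. RNA was sequenced from BMDCs of 4 genotypes, wild-type, *Tmem173*-/- (the gene of STING), *Irf1*-/- and *Irf3/7*-/-, each untreated or kept with c-di-GMP for 18 h, with 2 samples listed in each of 8 conditions. The labels give C57BL/6 mice and cells grown from marrow with GM-CSF and IL-4 at 10 ng/ml each for 6 days, so that untreated and treated cells of every genotype had received IL-4. The methods give an age of 6 to 12 weeks. The dose of c-di-GMP is 25 µg/ml in the labels and 50 µg/ml in a legend of the study. The labels name no sort of the cultures, so that cells other than dendritic cells may be present.

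Leukotrienes are lipid messengers made from arachidonic acid. The 5-lipoxygenase encoded by *Alox5*, presented with its substrate by the membrane protein FLAP (*Alox5ap*), makes the unstable epoxide LTA4. LTA4 hydrolase (*Lta4h*) turns LTA4 into LTB4, an attractant of neutrophils that acts through the receptor BLT1 (*Ltb4r1*), while LTC4 synthase (*Ltc4s*) joins LTA4 to glutathione and so opens the cysteinyl branch, whose LTD4 acts through the receptor CysLT1 (*Cysltr1*). The 12/15-lipoxygenase of *Alox15* oxygenates the same fatty acids at other carbons and is well known as a gene that IL-4 induces in myeloid cells.

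The loci are given on GRCm38, the assembly their coordinates correspond to. *Alox5* lies at chr6:116410071-116461178 on the minus strand, *Alox5ap* at chr5:149265058-149288047 on the plus strand, *Lta4h* at chr10:93453396-93484896 on the plus strand and *Ltc4s* at chr11:50236472-50238471 on the minus strand. *Alox15* lies at chr11:70344147-70352031 on the minus strand, *Ltb4r1* at chr14:55765962-55768492 on the plus strand and *Cysltr1* at chrX:106576517-106710557 on the minus strand. Each value covers the exons of a whole gene. The *Cysltr1* locus overlaps that of *Gm5127*, so reads of these genes may have been shared, and no other member overlaps a further locus of the table.

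Promoters are shown for *Lta4h*, *Ltc4s* and *Ltb4r1*, which were called changed by c-di-GMP in wild-type cells. *Alox15*, also called there, had no matched RefSeq promoter and was not searched. The stretches shown are the 250 bases before the RefSeq start on GRCm38.p6, read 5′ to 3′ on the strand of the gene, with each CG dinucleotide in capitals. The first is chr10:93453146-93453395 on the plus strand, the second chr11:50238533-50238782 on the minus strand and the third chr14:55765712-55765961 on the plus strand. The start used for *Ltc4s* lies 61 bases upstream of its locus given above.
Lta4h: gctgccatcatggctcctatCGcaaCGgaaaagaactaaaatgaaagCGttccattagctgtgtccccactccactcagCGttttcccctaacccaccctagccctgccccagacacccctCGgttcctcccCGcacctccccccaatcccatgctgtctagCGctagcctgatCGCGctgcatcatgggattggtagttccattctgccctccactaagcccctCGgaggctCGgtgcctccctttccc
Ltc4s: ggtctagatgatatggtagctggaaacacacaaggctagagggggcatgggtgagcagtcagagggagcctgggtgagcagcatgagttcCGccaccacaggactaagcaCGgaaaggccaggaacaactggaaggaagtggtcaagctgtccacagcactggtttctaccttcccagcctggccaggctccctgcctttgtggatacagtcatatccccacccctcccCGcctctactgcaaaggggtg
Ltb4r1: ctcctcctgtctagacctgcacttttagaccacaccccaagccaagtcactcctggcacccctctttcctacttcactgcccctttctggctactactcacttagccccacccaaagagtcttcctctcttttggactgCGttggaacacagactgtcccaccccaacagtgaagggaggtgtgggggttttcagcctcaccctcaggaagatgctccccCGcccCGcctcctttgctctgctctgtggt
The stretch before *Lta4h*, which fell with treatment, held 11 CG dinucleotides at 58.8% G + C. That before *Ltb4r1*, which fell too, held 3 at 56.8%, and that before *Ltc4s*, which rose, held 3 at 57.6%, beside medians of 6 and 52.4% over 32851 mouse promoters. RefSeq promoters were matched for 4 of the 7 genes, the fourth being *Alox5*, with 5 CG dinucleotides at 52.8% G + C. These windows, extended to 50 bases after the start, were searched on both strands for the STAT pattern TTCNNNGAA, the STAT6 pattern TTCNNNNGAA and the interferon response core GAAANNGAAA. The 4 windows held 0 matches to each pattern, while 8.30%, 6.95% and 3.44% of all promoters held one. That says only that these letters are not in these windows.

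The deposited table holds a single FPKM (fragments per kilobase of exon, scaled to the number of mapped fragments) for each condition, in which the replicates had been combined, with the lower and upper bounds of the authors' interval. There is thus no spread between replicates and no p-value here. Between 2 conditions, a gene counted as called where it differed more than 2-fold on the scale log2(FPKM + 0.1), its intervals did not overlap, and it reached at least 1 FPKM in either. The targeted genes were read first. *Tmem173* was at 103 and 118 FPKM in untreated and treated wild-type cells and at 8.97 and 7.49 FPKM in *Tmem173*-/- cells. *Irf1* was at 149 and 245 FPKM in wild-type and at 25.9 and 116 FPKM in *Irf1*-/- cells. It was also low in *Tmem173*-/- cells, at 24.1 and 23.3 FPKM, so a low *Irf1* level is not particular to *Irf1*-/- cells. Reads of exons that a deletion leaves cannot be set apart, for *Irf1* or for *Irf3* and *Irf7* below. *Irf7* was at 15.2 and 687 FPKM in wild-type and at 1.07 and 4.97 FPKM in *Irf3/7*-/- cells. *Irf3* was at 19.9 and 15.8 FPKM in wild-type cells and at 7.74 FPKM in untreated *Irf3/7*-/- cells, but at 20.2 FPKM in the treated ones. The label was thus borne out by *Irf7* in both states, but not by *Irf3* RNA in treated cells. Cells of this genotype are therefore called the cells labelled *Irf3/7*-/-. The name *Irf1*-/- also rests on the label. *Irf1* in treated *Irf1*-/- cells (interval 82.8 to 149) overlapped that of untreated wild-type cells (113 to 185). The columns of *Tmem173*-/- cells are named TM173 and TM173GDP, and the one with the added letters was read as treated.

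All 7 genes were measured at more than 1 FPKM in every condition. FLAP had the highest FPKM of the 7 in each of the 8 conditions, and its level lay between the 89.0th and 97.6th percentile of the genes at 1 FPKM or more. *Alox15* covered the widest range, from the 19.6th to the 89.7th percentile. The 10 dendritic cell genes summed to 5108 to 9249 FPKM and were present throughout. *Cd74* (the invariant chain of MHC class II) was at 3336 to 4983 FPKM and *Itgax* (CD11c) at 135 to 369 FPKM. The levels of the list were not equal between genotypes. *H2-Ab1* and *H2-Aa* were called lower in *Irf1*-/- than in wild-type cells, untreated (4.78% of all genes called) and treated (7.56%). *Ccr7* and *Cd83* were called lower in *Tmem173*-/- than in wild-type cells, untreated (5.95% of all genes lower) and treated (13.5%). Treated *Tmem173*-/- cells also had lower *Batf3* and higher *Itgax*, and treated cells labelled *Irf3/7*-/- had higher *Flt3*.

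**Figure D1:**
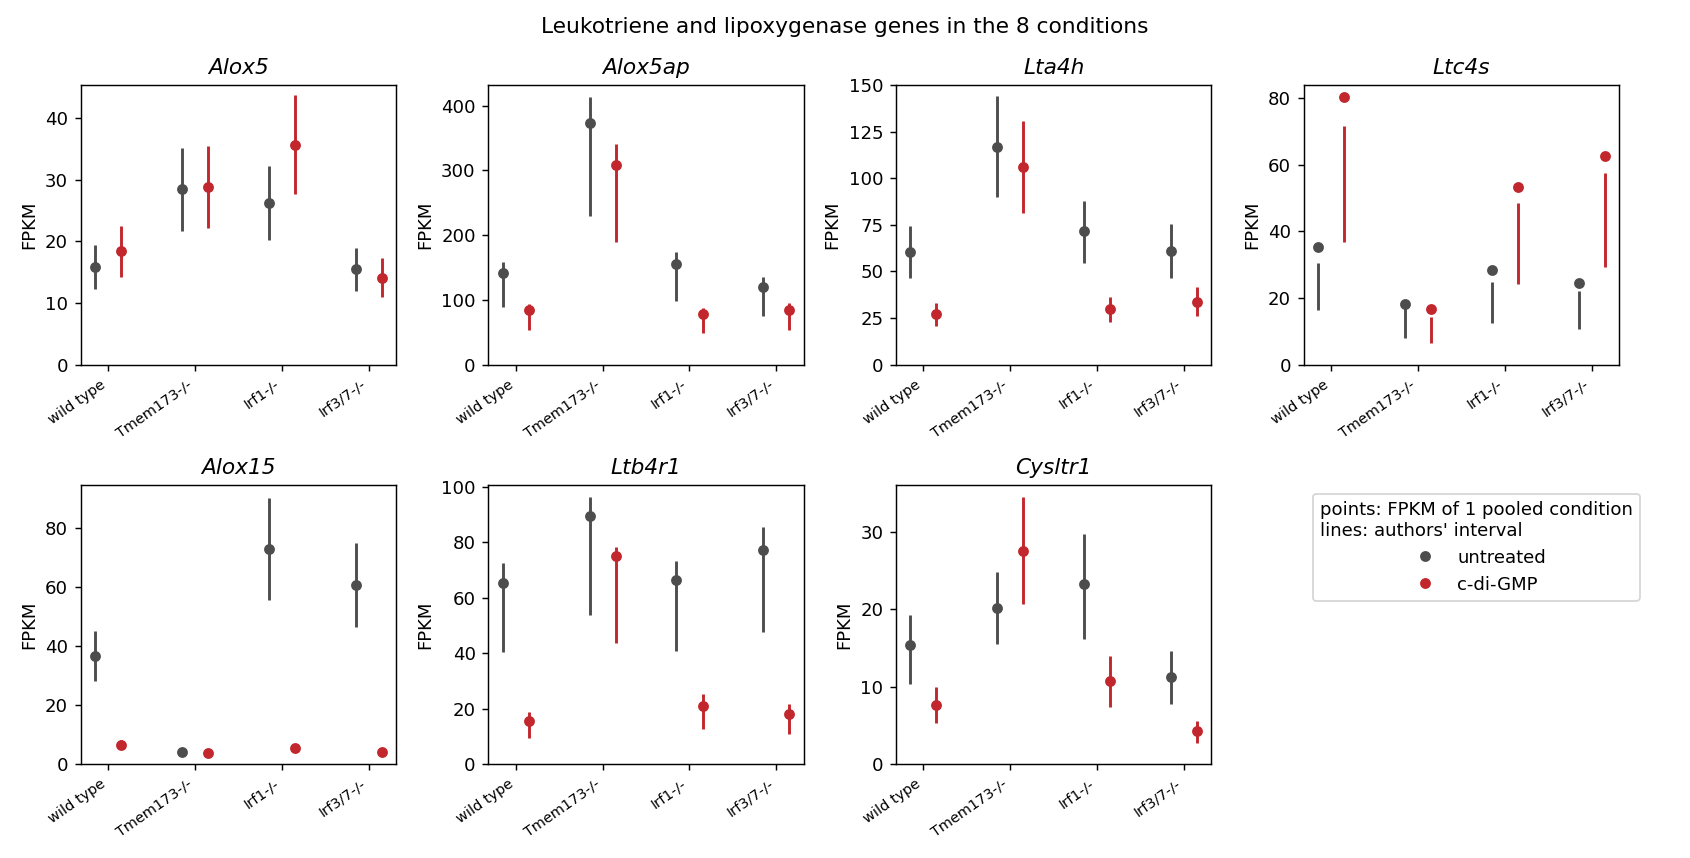
FPKM (linear axes from 0, 1 panel for each gene) of the 7 leukotriene and lipoxygenase genes by genotype, with points at the deposited FPKM of untreated (grey) and treated (red) cells and lines for the authors' interval. *Alox15* stood at 36.7 to 73.2 FPKM in the 3 untreated conditions other than *Tmem173*-/- and at 3.98 to 6.70 FPKM in the other 5, while the points of *Ltc4s* lie above their own bars.

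c-di-GMP changed the balance of the pathway in wild-type BMDCs. LTC4 synthase rose, whereas LTA4 hydrolase, 12/15-lipoxygenase and the LTB4 receptor fell, and 5-lipoxygenase itself was not called. Of the 7 genes, 1 was called higher and 3 were called lower. Over the 11201 genes tested, 20.5% were called in either direction, 10.5% higher and 9.96% lower. The median log2 change was -0.996 over the 7 genes and 0.0033 over all genes tested.

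The first step of the pathway was not called changed in wild-type cells. *Alox5* was at 15.9 FPKM (interval 12.3 to 19.5) in untreated and 18.4 FPKM (14.3 to 22.5) in treated wild-type cells, at 28.5 (21.7 to 35.2) and 28.8 FPKM (22.1 to 35.5) in *Tmem173*-/-, at 26.2 (20.3 to 32.2) and 35.7 FPKM (27.7 to 43.8) in *Irf1*-/-, and at 15.5 (12 to 19.0) and 14.1 FPKM (10.9 to 17.3) in cells labelled *Irf3/7*-/-. The log2 change with c-di-GMP was 0.21 in wild-type, 0.02 in *Tmem173*-/-, 0.44 in *Irf1*-/- and -0.14 in cells labelled *Irf3/7*-/-, with overlapping intervals in each. In the order of the 8 levels every neighbour overlapped the next. The highest and lowest, both treated, did not: *Alox5* was higher in *Irf1*-/- than in cells labelled *Irf3/7*-/- by 2.54-fold, a log2 difference of 1.34, which was called.

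FLAP was lower in treated than in untreated cells of every genotype, without passing the call in any. *Alox5ap* was at 141 FPKM (89.4 to 159) and 84.6 FPKM (53.1 to 94) in wild-type, at 373 (229 to 414) and 309 FPKM (190 to 341) in *Tmem173*-/-, at 156 (97.6 to 174) and 78.3 FPKM (49.2 to 87.3) in *Irf1*-/-, and at 120 (75.4 to 135) and 84.7 FPKM (53.7 to 95.0) in cells labelled *Irf3/7*-/-. The log2 changes were -0.74, -0.27, -0.99 and -0.50 in this order. In *Irf1*-/- cells the intervals were apart and the difference of 1.99-fold lay just under the threshold. Both *Tmem173*-/- conditions stood above the other 6. In the order of levels, the intervals of neighbours parted only between treated *Tmem173*-/- and untreated *Irf1*-/- cells.

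The enzymes that share LTA4 moved in opposite directions in wild-type cells, the only genotype in which both were called. *Lta4h* was at 60.3 FPKM (46.3 to 74.3) in untreated and 27.0 FPKM (20.9 to 33.1) in treated wild-type cells, at 117 (90.0 to 144) and 106 FPKM (81.5 to 131) in *Tmem173*-/-, at 71.5 (54.6 to 88.1) and 29.7 FPKM (23.0 to 36.3) in *Irf1*-/-, and at 61.0 (46.7 to 75.3) and 33.7 FPKM (25.9 to 41.5) in cells labelled *Irf3/7*-/-. It fell 2.23-fold in wild-type and 2.41-fold in *Irf1*-/- cells. In cells labelled *Irf3/7*-/- the intervals were apart, but the difference of 1.81-fold was under the threshold. In the order of levels, the intervals of neighbours parted only between untreated wild-type cells and treated cells labelled *Irf3/7*-/-. The 3 treated conditions other than *Tmem173*-/- thus formed the low end.

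*Ltc4s* was at 35.4 FPKM (16.3 to 30.6) in untreated and 80.3 FPKM (36.9 to 71.5) in treated wild-type cells, at 18.1 (7.84 to 16.9) and 16.7 FPKM (6.63 to 14.3) in *Tmem173*-/-, at 28.3 (12.5 to 24.8) and 53.3 FPKM (24.2 to 48.5) in *Irf1*-/-, and at 24.5 (10.7 to 22.2) and 62.7 FPKM (29.2 to 57.6) in cells labelled *Irf3/7*-/-. The same 3 treated conditions that were lowest for *Lta4h* were highest here. *Ltc4s* rose 2.27-fold in wild-type cells and 2.56-fold in cells labelled *Irf3/7*-/-, and in *Irf1*-/- cells the log2 change of 0.91 was not called. The FPKM of *Ltc4s* lay above its own interval in all 8 conditions, so its level is less certain than that of the other genes. The calls were the same with intervals of the same relative width placed around the FPKM. In the order of levels each neighbour overlapped the next.

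**Figure D2:**
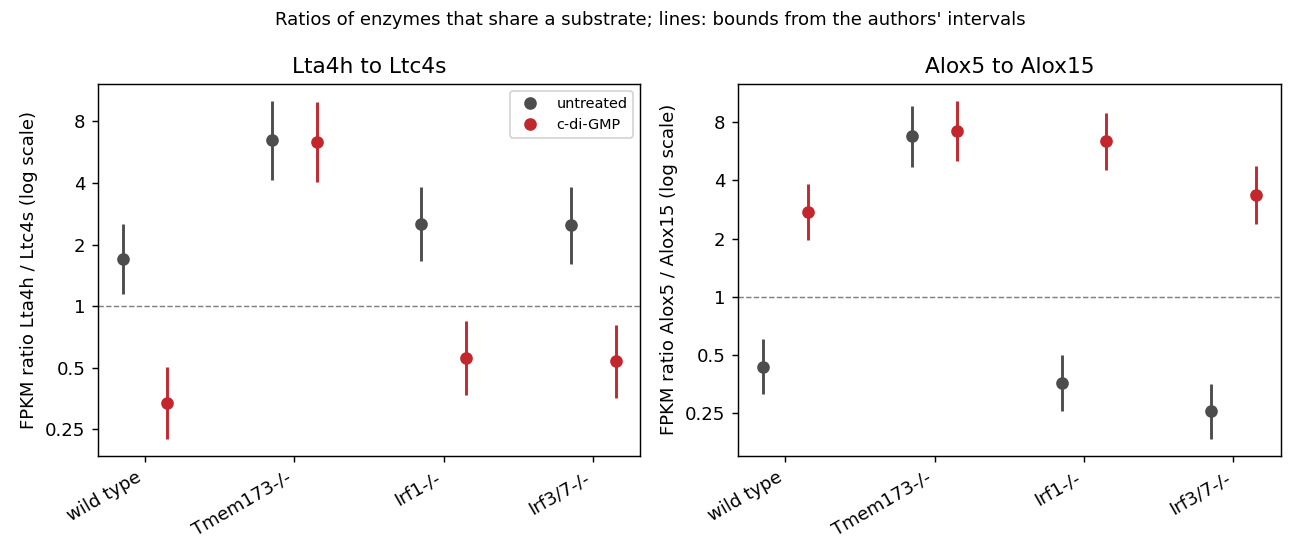
Ratio of the FPKM of *Lta4h* to *Ltc4s* and of *Alox5* to *Alox15* (log axes) in untreated and treated cells of each genotype, with vertical lines for the bounds that follow from the authors' intervals and a dashed line at equal FPKM. The *Lta4h* ratio passed from above to below 1 with c-di-GMP in 3 genotypes and stayed at 6.47 and 6.36 in *Tmem173*-/- cells.

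The ratio of *Lta4h* to *Ltc4s*, both per length, sets the enzymes side by side within a condition. It was 1.71 (bounds 1.15 to 2.53, from the relative widths of the authors' intervals) in untreated and 0.336 (0.225 to 0.503) in treated wild-type cells. It went from 2.52 (1.66 to 3.82) to 0.556 (0.367 to 0.842) in *Irf1*-/- cells and from 2.49 (1.61 to 3.84) to 0.537 (0.356 to 0.811) in cells labelled *Irf3/7*-/-. In *Tmem173*-/- cells it was 6.47 (4.13 to 10.1) and 6.36 (4.06 to 9.95). The ratio thus crossed 1 with treatment in 3 genotypes and differed little between treated and untreated cells without *Tmem173*. With the midpoints of the intervals in place of the FPKM, the treated ratios were 0.498, 0.816 and 0.776 in wild-type, *Irf1*-/- and cells labelled *Irf3/7*-/-, and 10.1 in *Tmem173*-/- cells. The first 3 were below 1 as point values. No bounds were computed for midpoint ratios. It was thus not shown that those of *Irf1*-/- and cells labelled *Irf3/7*-/-, which lay closer to 1, were clear of it. These are ratios of RNA, not of enzyme or product.

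*Alox15* showed the largest differences of the 7 genes. It was at 36.7 FPKM (28.2 to 45.2) in untreated and 6.70 FPKM (5.04 to 8.37) in treated wild-type cells, at 4.20 (3.05 to 5.34) and 3.98 FPKM (2.90 to 5.04) in *Tmem173*-/-, at 73.2 (55.8 to 90.5) and 5.61 FPKM (4.18 to 7.02) in *Irf1*-/-, and at 60.7 (46.5 to 75.0) and 4.18 FPKM (3.08 to 5.27) in cells labelled *Irf3/7*-/-. With c-di-GMP it fell 5.47-fold in wild-type, 13-fold in *Irf1*-/- and 14.5-fold in cells labelled *Irf3/7*-/-. Its levels formed 3 steps whose neighbours did not overlap: untreated *Irf1*-/- and cells labelled *Irf3/7*-/-, then untreated wild-type cells, then the other 5 conditions, which overlapped along their order. The log2 change was larger than in wild-type cells by -1.25 (bounds -1.95 to -0.54) in *Irf1*-/- and by -1.40 (-2.11 to -0.68) in cells labelled *Irf3/7*-/-. These differences arose with higher untreated levels, by a log2 difference of 0.99 and 0.73, which were not called although the intervals were apart, and with treated levels whose differences from wild-type, -0.25 and -0.67, were not called.

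Without *Tmem173* the *Alox15* level was low before any treatment. Untreated *Tmem173*-/- cells had 8.74 times less *Alox15* than untreated wild-type cells, a log2 difference of -3.10. The other lipoxygenases gave little signal. Of the 5 listed, only *Alox12e* was tested in wild-type cells, at 1.499 FPKM in untreated and 0.140 FPKM in treated cells, and it was called lower. The ratio of *Alox5* to *Alox15* was 0.434 (0.313 to 0.602) in untreated and 2.75 (1.96 to 3.85) in treated wild-type cells. It went from 0.359 (0.257 to 0.500) to 6.37 (4.53 to 8.96) in *Irf1*-/- cells, from 0.255 (0.183 to 0.355) to 3.37 (2.38 to 4.78) in cells labelled *Irf3/7*-/-, and was 6.79 (4.72 to 9.78) and 7.25 (5.07 to 10.4) in *Tmem173*-/- cells. The lipoxygenase with the higher FPKM was thus *Alox15* in untreated and *Alox5* in treated cells of the 3 other genotypes, and *Alox5* in both *Tmem173*-/- conditions.

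Both receptors were lower in treated cells of the genotypes with *Tmem173*. *Ltb4r1* was at 65.3 FPKM (40.5 to 72.6) and 15.6 FPKM (9.46 to 19.0) in untreated and treated wild-type cells, at 89.3 (53.6 to 96.4) and 75.0 FPKM (43.8 to 78.3) in *Tmem173*-/-, at 66.4 (40.9 to 73.2) and 21.1 FPKM (12.8 to 25.2) in *Irf1*-/-, and at 77.1 (47.8 to 85.4) and 18.0 FPKM (11 to 21.9) in cells labelled *Irf3/7*-/-. It fell 4.19-fold, 3.15-fold and 4.28-fold in wild-type, *Irf1*-/- and cells labelled *Irf3/7*-/-. The levels fell into 2 sets, 5 conditions at 65.3 FPKM or more and the 3 treated conditions at 21.1 FPKM or less, with no overlap between the sets.

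*Cysltr1* was at 15.5 FPKM (10.4 to 19.3) and 7.70 FPKM (5.37 to 10.0) in wild-type, at 20.2 (15.6 to 24.9) and 27.6 FPKM (20.7 to 34.5) in *Tmem173*-/-, at 23.3 (16.1 to 29.8) and 10.8 FPKM (7.42 to 14.0) in *Irf1*-/-, and at 11.3 (7.74 to 14.6) and 4.24 FPKM (2.77 to 5.65) in cells labelled *Irf3/7*-/-. Its order ran without a gap, each neighbour overlapping the next. It fell 2.17-fold in *Irf1*-/- and 2.65-fold in cells labelled *Irf3/7*-/-. In wild-type cells the intervals were apart, but the log2 change of -0.996 lay just short of the threshold, and the gene was called there when 0.01 FPKM was added in place of 0.1. Treated *Irf1*-/- cells had 2.54 times as much *Cysltr1* as treated cells labelled *Irf3/7*-/-, which was called. *Cysltr1* was thus not called higher with c-di-GMP in any genotype.

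**Figure D3:**
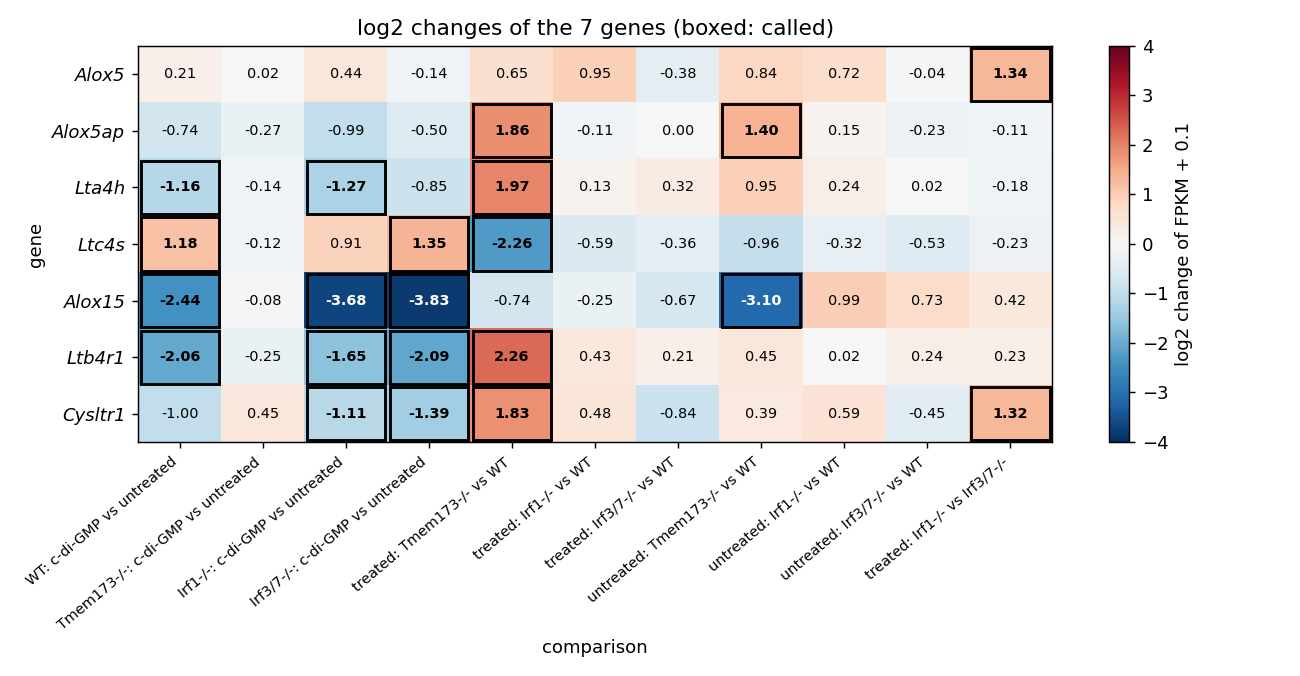
Heat map of the log2 change of FPKM + 0.1 for the 7 genes (rows) in 11 comparisons (columns), blue for lower and red for higher, with the value in each cell and a box around values called. With c-di-GMP in *Tmem173*-/- cells the changes lie between -0.27 and 0.45 and none is called.

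In *Tmem173*-/- cells c-di-GMP changed none of the 7 genes by this rule, and 0.0552% of the 10867 genes tested were called there. In *Irf1*-/- cells 4 of the 7 were called, all lower, beside 17.5% of genes in either direction and 7.81% lower. In cells labelled *Irf3/7*-/- 1 was called higher and 3 lower, beside 17.9% in either direction, 10.2% higher and 7.68% lower. The median log2 changes over the 7 genes were -0.12, -1.11 and -0.85 in these genotypes.

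The change in each knockout was then set against that in wild-type cells, with bounds from the 4 intervals involved. In *Tmem173*-/- cells the bounds excluded 0 for 5 genes: the log2 change minus that of wild-type cells was 1.01 (0.34 to 1.69) for *Lta4h*, -1.30 (-2.32 to -0.28) for *Ltc4s*, 2.36 (1.62 to 3.10) for *Alox15*, 1.81 (0.92 to 2.69) for *Ltb4r1* and 1.44 (0.64 to 2.24) for *Cysltr1*. For *Alox5* and *Alox5ap* they included 0. In *Irf1*-/- cells and in cells labelled *Irf3/7*-/- they excluded 0 only for *Alox15*, as given above. For the other 6 genes a difference from wild-type cells in the response could not be shown from these intervals, which is not evidence that the responses were equal.

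Treated *Tmem173*-/- cells differed from treated wild-type cells at 5 of the 7 genes. *Alox5ap* was higher by 3.65-fold, *Lta4h* by 3.92-fold, *Ltb4r1* by 4.81-fold and *Cysltr1* by 3.59-fold, and *Ltc4s* was lower by 4.82-fold. That is 4 higher and 1 lower, beside 26.3% of the 11318 genes tested in either direction, 12.9% higher and 13.5% lower. *Alox15*, low in both, was not called, at a log2 difference of -0.74. The comparison uses the same treated wild-type condition as the response above and is not independent of it.

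Before treatment, *Tmem173*-/- cells already stood apart at 2 of the 7 genes, *Alox5ap*, 2.65-fold higher, and *Alox15*, lower as given above. Over all genes 11% were called, 5.04% higher and 5.95% lower. For *Alox5* and *Lta4h* the intervals were also apart, at log2 differences of 0.84 and 0.95, but neither was called. None of the 7 genes was called between *Irf1*-/- and wild-type cells, treated (7.56% of all genes called) or untreated (4.78%), nor between cells labelled *Irf3/7*-/- and wild-type cells, treated (7.30%) or untreated (2.04%). The 2 genes called between treated *Irf1*-/- and treated cells labelled *Irf3/7*-/- were *Alox5* and *Cysltr1*, both higher in *Irf1*-/-, beside 9.84% of all genes in either direction and 3.22% higher. *Alox5* was higher in *Irf1*-/- than in wild-type cells by 1.65-fold untreated and 1.94-fold treated. The intervals were apart in both states, but neither difference was called.

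RNA levels of cell type marker genes differed between the conditions. In RNA of a whole culture, fewer cells of a type and less RNA per cell cannot be told apart, and the makeup of the cultures was not tested. The summed FPKM of 11 neutrophil genes was 4101 and 1921 in untreated and treated wild-type cells, and 20117 and 14620 in *Tmem173*-/- cells. It was 2605 and 1444 in *Irf1*-/- cells and 2344 and 1467 in cells labelled *Irf3/7*-/-. It was thus highest in both *Tmem173*-/- conditions, where *Alox5ap* and *Lta4h*, which neutrophils also express, were highest as well. In untreated *Tmem173*-/- cells 8 of the 11 neutrophil genes were called higher and 1 lower than in wild-type cells (5.04% and 5.95% of all genes), and in treated ones 9 were called higher (12.9%). In treated against untreated wild-type cells 1 was called higher and 3 lower (10.5% and 9.96%). The part of neutrophil RNA in the levels of the leukotriene genes was not tested.

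The eosinophil genes, of a cell type rich in *Alox15* and *Ltc4s*, were not called changed with treatment in any genotype. Their summed FPKM over 6 genes was 940 and 946 in untreated and treated wild-type cells, and 291 and 227 in *Tmem173*-/- cells. The sum was 182 and 220 in *Irf1*-/- cells and 398 and 664 in cells labelled *Irf3/7*-/-. *Prg2*, the major basic protein, was at 676 and 676 FPKM in untreated and treated wild-type cells. Between these conditions 0 of 5 genes tested were called, beside 20.5% of all genes in either direction. Untreated *Irf1*-/- cells were lower than untreated wild-type cells for 4 of 5 eosinophil genes tested (4.78% of all genes called in either direction), and *Alox15* was at 73.2 and 36.7 FPKM in these conditions. Untreated *Tmem173*-/- cells were lower for 4 of 4 eosinophil genes tested (5.95% of all genes) as well as for *Alox15*. The part of eosinophil RNA in the levels of *Alox15* and *Ltc4s* was not tested in any of these comparisons.

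Basophil and mast cell genes, which mark other sources of *Ltc4s*, summed to 75.1 and 164 FPKM in untreated and treated wild-type cells, and 76.7 and 63.3 FPKM in *Tmem173*-/- cells. They summed to 67.6 and 139 in *Irf1*-/- cells and to 177 and 281 in cells labelled *Irf3/7*-/-. In wild-type cells 1 of 8 genes tested was called higher with treatment and 1 lower, near the shares of all genes (10.5% and 9.96%). The higher one, *Hdc* (histidine decarboxylase), went from 3.45 to 79.1 FPKM and made up most of the difference in the sum. Between treated cells labelled *Irf3/7*-/- and treated wild-type cells 8 of 9 of these genes were called higher and 1 lower (7.30% of all genes in either direction), and *Ltc4s* was at 62.7 and 80.3 FPKM. The part of these cells in the *Ltc4s* level was not tested. T and NK cell genes summed to 402 and 367 FPKM in wild-type, and 1.23 and 1.29 FPKM in *Tmem173*-/- cells. These sums were 10.3 and 17.2 in *Irf1*-/- cells and 383 and 1020 in cells labelled *Irf3/7*-/-. *Gzma*, a protease of these cells, was listed at 0 in both *Tmem173*-/- conditions. Macrophage genes summed to 205 and 163 FPKM in wild-type and 450 and 439 FPKM in *Tmem173*-/- cells. Their sums were 104 and 91.0 in *Irf1*-/- cells and 212 and 156 in cells labelled *Irf3/7*-/-. Like the neutrophil sum, this was highest in both *Tmem173*-/- conditions. Against wild-type cells, 6 of 9 were called higher there and 1 lower when treated (12.9% and 13.5% of all genes). When untreated, 2 of 9 were higher (5.04%). The part of macrophage RNA in the leukotriene genes was not tested. B cell genes summed to 3.34 to 10.7 FPKM.

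The other genes that IL-4 induces were read beside *Alox15*. With c-di-GMP 4 of 9 tested were called lower in wild-type cells (9.96% of all genes), 5 of 9 in *Irf1*-/- (7.81%) and 4 of 9 in cells labelled *Irf3/7*-/- (7.68%), with none higher. In *Tmem173*-/- cells none of 11 was called (0.0552% of all genes in either direction). In untreated *Tmem173*-/- against wild-type cells 5 of 10 were lower (5.95% of all genes) and 1, *Mrc1*, was higher (5.04%). Those lower included *Arg1* (arginase 1), at 549 FPKM in wild-type and 20.2 FPKM in *Tmem173*-/- cells, *Retnla* (FIZZ1), at 500 and 3.84 FPKM, and *Ccl24* (eotaxin-2), at 746 and 1.97 FPKM. The low *Alox15* of untreated *Tmem173*-/- cells was thus seen beside low levels of several, not all, genes of that list. Of 14 interferon-induced genes, 13 were called higher in wild-type cells with c-di-GMP (10.5% of all genes), and 12 were called lower in *Tmem173*-/- cells when untreated knockout and wild-type cells were compared (5.95%).

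Further genes around the pathway were read from 6 lists of 48 genes in all. Of 29 tested in wild-type cells, 8 were called higher and 6 lower with c-di-GMP (20.5% of all genes called in either direction), and in *Tmem173*-/- cells 0 of 27 were called (0.0552%). In *Irf1*-/- cells 3 were called higher and 4 lower of 28 (17.5%), and in cells labelled *Irf3/7*-/- 7 higher and 4 lower of 28 (17.9%). Between treated knockout and wild-type cells, 9 were higher and 5 lower of 30 in *Tmem173*-/- (26.3% of all genes in either direction), 2 higher and 9 lower of 29 in *Irf1*-/- (7.56%), and 4 higher and 3 lower of 29 in cells labelled *Irf3/7*-/- (7.30%). Between untreated *Irf1*-/- and wild-type cells 7 of 27 were lower and 1 higher (4.78%), beside 0 of 27 in cells labelled *Irf3/7*-/- (2.04%) and 11 higher and 3 lower of 29 in *Tmem173*-/- (11%).

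**Figure D4:**
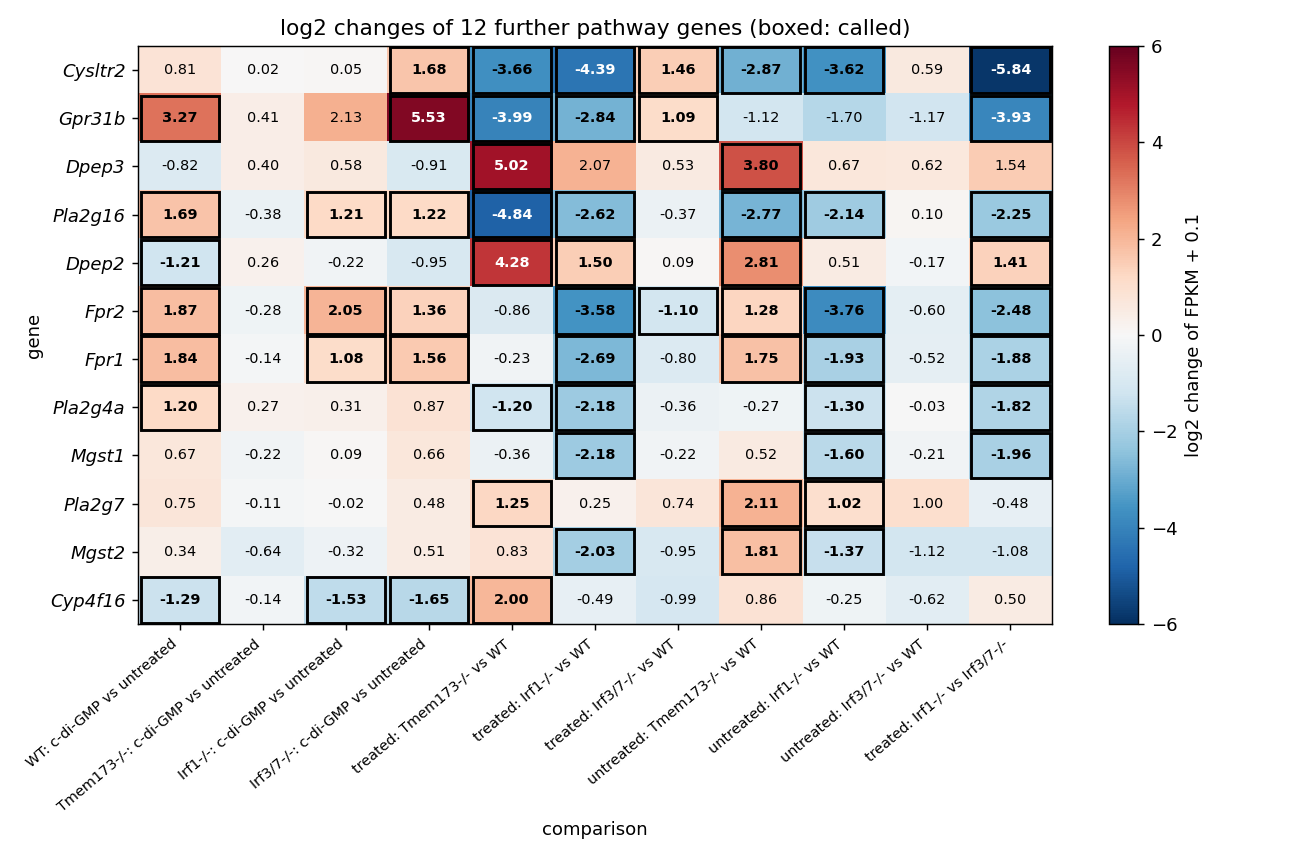
Heat map of the log2 change of FPKM + 0.1 for the 12 genes around the pathway with the largest called changes (rows) in 11 comparisons (columns), blue for lower and red for higher, with the value in each cell and a box around values called. In treated *Irf1*-/- cells *Cysltr2*, *Pla2g16*, *Fpr2* and *Pla2g4a* are lower than in treated wild-type cells, whereas *Dpep2* is higher. The genes named as lower are also called lower between untreated *Irf1*-/- and wild-type cells.

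Of 6 genes of arachidonate release tested in wild-type cells, 3 were called higher with treatment and 0 lower, where over all genes, here and for the groups that follow, 10.5% were called higher and 9.96% lower. *Pla2g4a*, the cytosolic phospholipase A2 that supplies the pathway, went from 11.3 to 26.1 FPKM in wild-type cells, a called log2 change of 1.20. It was at 9.34 and 11.3 FPKM in *Tmem173*-/-, at 4.54 and 5.67 FPKM in *Irf1*-/-, and at 11.1 and 20.3 FPKM in cells labelled *Irf3/7*-/-. In *Irf1*-/- it was lower than in wild-type cells in both states, by a log2 difference of -1.30 untreated and -2.18 treated. *Pla2g16*, a further phospholipase, was called higher with treatment in 3 genotypes. In *Irf1*-/- it was called lower than in wild-type cells in both states, by a log2 difference of -2.14 untreated and -2.62 treated. In *Tmem173*-/- it was called lower too, by -2.77 untreated and -4.84 treated. *Pla2g7*, which hydrolyses platelet-activating factor, was at 72.6 FPKM in untreated wild-type and 313 FPKM in untreated *Tmem173*-/- cells.

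Genes of conjugation, processing and export of leukotrienes were not called higher with treatment in wild-type cells, where 2 of 6 were lower. *Dpep2*, a dipeptidase that turns LTD4 into LTE4, fell from 13.6 to 5.81 FPKM in wild-type cells and stood at 95.8 and 115 FPKM in *Tmem173*-/- cells. It was at 19.3 and 16.6 FPKM in *Irf1*-/- and at 12 and 6.19 FPKM in cells labelled *Irf3/7*-/-. *Mgst2*, a microsomal transferase that can also form LTC4, was at 9.73 and 12.4 FPKM in wild-type and 3.71 and 2.95 FPKM in *Irf1*-/- cells, and was called lower in *Irf1*-/- in both states. It was at 4.44 and 6.36 FPKM in cells labelled *Irf3/7*-/-, not called against wild-type cells in either state. The treated *Irf1*-/- cells and cells labelled *Irf3/7*-/- were not called apart. In *Tmem173*-/- cells it was at 34.5 and 22.1 FPKM, called higher than in wild-type cells when untreated. *Mgst1*, its relative, was also lower in *Irf1*-/- than in wild-type cells, by a log2 difference of -1.60 untreated and -2.18 treated. *Dpep3* was called higher in *Tmem173*-/- cells in both states, at 4.36 and 5.79 FPKM.

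Of the genes of breakdown and epoxide hydrolysis, 1 of 6 was called higher and 2 lower in wild-type cells. *Cyp4f16*, of the cytochrome family that oxidises LTB4, fell with treatment in the 3 genotypes in which *Ltb4r1* fell, from 13.7 to 5.55 FPKM in wild-type cells. Of 5 partners of 5-lipoxygenase and genes of peroxide tone, 1 was called lower in wild-type cells, *Cotl1*, whose product binds 5-lipoxygenase, at 674 and 223 FPKM.

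Among the other receptors, 4 of 5 tested were called higher with c-di-GMP in wild-type cells, beside 10.5% of all genes. All 5 were lower in treated *Irf1*-/- than in treated wild-type cells, where 7.56% of all genes were called in either direction. *Cysltr2*, the second receptor of cysteinyl leukotrienes, was at 3.44 and 6.11 FPKM in wild-type, at 0.385 and 0.391 FPKM in *Tmem173*-/-, at 0.187 and 0.197 FPKM in *Irf1*-/-, and at 5.22 and 16.9 FPKM in cells labelled *Irf3/7*-/-. It was called higher with c-di-GMP in cells labelled *Irf3/7*-/-, by a log2 change of 1.68, where *Ltc4s* was called higher too. *Cysltr2* was called lower in *Irf1*-/- and *Tmem173*-/- than in wild-type cells in both states, whereas *Cysltr1* was not called lower in any comparison between genotypes with *Irf1*-/- or *Tmem173*-/- cells. The sums of T and NK cell genes given above were also lowest in these 2 genotypes and highest in treated cells labelled *Irf3/7*-/-. The part of other cell types in the *Cysltr2* level was not tested. *Fpr2*, a receptor of formyl peptides that also binds lipoxin A4, rose from 67.2 to 245 FPKM in wild-type cells. It was at 4.87 and 20.4 FPKM in *Irf1*-/- and at 44.5 and 114 FPKM in cells labelled *Irf3/7*-/-, called higher with treatment in both. In *Tmem173*-/- cells it was at 163 and 135 FPKM. Against wild-type cells it was also called lower in treated cells labelled *Irf3/7*-/- and higher in untreated *Tmem173*-/-. *Fpr1*, the related formyl peptide receptor, rose from 30.3 to 109 FPKM in wild-type cells. It was at 7.87 and 16.8 FPKM in *Irf1*-/- and at 21.1 and 62.3 FPKM in cells labelled *Irf3/7*-/-, again called higher with treatment in both. In *Tmem173*-/- cells *Fpr1* was at 102 and 93.1 FPKM, called higher than in wild-type cells when untreated. *Gpr31b* rose from 0.542 to 6.09 FPKM in wild-type and to 13.1 FPKM in cells labelled *Irf3/7*-/-.

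Across the 8 conditions the levels of the 7 genes were compared with 7382 other genes that reached 10 FPKM in a condition, by Pearson correlation of log2 values, as a description in which the conditions share genotypes and treatment. Most like *Alox5* were *Pls3* (r = 0.953), *Arpc2* (0.945) and *F7* (0.933). Those most like *Alox5ap* were *Tnfrsf12a*, *Pex2* and *Tm7sf3* (0.998 to 0.990), and those most like *Lta4h* were *Grk6*, *Cks2* and *Srsf5* (0.993 to 0.989). For *Ltc4s* they were *Hook2*, *Zkscan17* and *Ubl7* (0.992 to 0.989), and for *Alox15* *Tubgcp2*, *Sdccag8* and *Nppc* (0.977 to 0.961). For *Ltb4r1* they were *Larp7*, *Srsf3* and *Lsm6* (0.997 to 0.995), and for *Cysltr1* *Upf3b*, *Ctbp2* and *Sike1* (0.988 to 0.975). Such an r compares the shape of a pattern and not its size. *Tubgcp2* ran only from 10.2 to 13.2 FPKM, where *Alox15* ran from 3.98 to 73.2 FPKM, and *Arpc2* only from 480 to 646 FPKM. Among the 7 genes, *Lta4h* followed *Alox5ap* (r = 0.957) and *Ltb4r1* (0.932) over the 8 conditions and ran opposite to *Ltc4s* (-0.967), whereas *Alox15* followed none of them closely.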

How the data were processed

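Stranded RNA libraries of BMDCs, 16 samples listed as 2 for each of 8 conditions, had been sequenced as 35-base paired-end reads. The authors ran Cuffdiff (version 1.06 in the submitters' notes), which combined the replicates of a condition, and deposited FPKM values with the bounds of an interval and a status. The aligner is not given in the sources used here, nor is the annotation. The notes name mm9, but 21454 of 21681 loci overlap the gene of the same name on GRCm38, whose coordinates are given. Another 4 columns match no listed sample and were not used. Read depth is unknown from FPKM, and the authors' intervals were not checked against replicates.

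Values were transformed as log2(FPKM + 0.1). In 11 comparisons a gene was tested at 1 FPKM or more in a condition with the status OK in both, and called as stated in the report. Bounds of differences and ratios combine the relative interval widths as root sums of squares. The steps were tested on simulated data. Of the genes around the pathway, those named were the 12 with the largest called changes among genes at 5 FPKM or more. Lists covered 6 pathway groups, dendritic cells, macrophages, neutrophils, eosinophils, basophils and mast cells, T and NK cells, B cells, and IL-4 and interferon-induced genes. The genes and lists were chosen with earlier results of these data known. Examples named from the marker and IL-4 lists were chosen after their values were seen. Promoters came from RefSeq. Alternatives changed the pseudocount, filter, fold, centring, interval rule and interval position. Computation ran in python 3.11.15 with scipy 1.17.1, matplotlib 3.10.9, pandas 2.3.3 and numpy 2.4.6.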

Additional observations from a re-analysis of the deposited data

How the results depend on the processing

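No paired analysis was possible because the replicates of a condition had been combined in a single value, and for the same reason no replicate could be left out. Over 7 genes and 11 comparisons, 21 calls were made. There were 21 with a pseudocount of 1 FPKM, without a minimum, with a minimum of 5 FPKM, with the fold change alone and with a z from the intervals, 22 with a pseudocount of 0.01 FPKM, 23 with median centring, 30 at 1.5-fold and 8 at 4-fold, and no called change reversed. At 4-fold, the genes called numbered 2 in wild-type cells with c-di-GMP, 1 in *Irf1*-/-, 2 in cells labelled *Irf3/7*-/-, 2 between treated *Tmem173*-/- and wild-type cells, 1 between the untreated ones and 0 between treated *Irf1*-/- cells and cells labelled *Irf3/7*-/-, since a higher threshold takes fewer. At 1.5-fold, 4 were called between untreated *Tmem173*-/- and wild-type cells, 2 between untreated *Irf1*-/- and wild-type cells, 1 between the treated ones and 1 between untreated cells labelled *Irf3/7*-/- and wild-type cells. Median centring called 1 between untreated *Irf1*-/- and wild-type cells, *Alox15*, at 1.03, and also *Alox5ap* with treatment in *Irf1*-/- cells, at -1.03.

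Further alternatives were chosen after seeing the data. Intervals placed around the FPKM gave 21 calls. With interval midpoints the *Lta4h* to *Ltc4s* ratio was 2.57 in untreated wild-type, 3.82 in untreated *Irf1*-/- and 10.1 in treated *Tmem173*-/- cells, by construction, since the FPKM of *Ltc4s* exceeds its interval. With the *Tmem173*-/- columns exchanged, the calls against wild-type cells were 5 for the treated and 3 for the untreated comparison, *Ltc4s* (-1.08) being added.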

Other observations

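The position of *Ltc4s* above its own interval was shared with other short genes. Between 64 and 95 genes in a condition, 0.593% to 0.883% of those at 1 FPKM or more, had an FPKM above the upper bound of the authors' interval. Their median exonic length was 885 to 973 bases, beside 4390.5 to 4434 bases for the other genes, and *Ltc4s* has 1014 bases of exon. The cause was not tested.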
